A study of Schizosaccharomyces pombe with 16 samples.

Results

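The genes described are 8 genes of zinc and phosphate homeostasis in the fission yeast Schizosaccharomyces pombe, of 7014 genes in the count table: zrt1 (SPBC16D10.06), zym1 (SPAC22H10.13), zhf1 (SPAC23C11.14), loz1 (SPAC25B8.19c), pho1 (SPBP4G3.02), pho84 (SPBC8E4.01c), tgp1 (SPBC1271.09) and pho4 (SPBC428.03c). They were taken by gene name, and all 8 passed the filter on low counts. zrt1 and zym1 were chosen by their measured values in these libraries, so their values are given as descriptions without a test. The contrast behind that choice was not recorded, and every comparison of these genes was therefore treated as used. The other 6 genes were tested within a model of all 6170 genes that passed the filter.

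RNA was sequenced from eIF2α.S52A cells, in which the serine of eIF2α that stress kinases phosphorylate is replaced by alanine, and from wild type (WT) cells of strain 972. The mutant allele is linked to a Ura4 marker in a ura4-D18 strain, so the strains differ in more than this serine, and each genotype is represented by 1 strain. Both strains grew in the rich medium YES and were collected at 6 h and at 0 h, the latter in exponential growth. The authors describe 6 h both as exponential growth and as the pre-stationary phase. From each culture, polysome-bound mRNA (mRNA that sediments with several ribosomes in a sucrose gradient) and total mRNA were sequenced. These are 8 groups of 2 replicates and 16 libraries, and the labels assign the replicates to separate experiments, each of which holds 1 library of every group.

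The libraries held 11279417 to 20522997 counted reads, with a median of 15287672. Levels are given as CPM (the counts of a gene relative to all counts of its library, scaled with TMM factors), and differences as log2 values with the standard error (SE) of the model. The second replicate of S52A cells at 6 h stood apart from the first: genes of cytosolic ribosomal proteins took 45.9% of its polysome reads against 31.1% in replicate 1, and 22.5% of its total mRNA reads against 15.6%. In WT cells at 6 h these shares were 30.1% and 27.2% in polysomes and 12.6% and 13.3% in total mRNA. Values that moved by over 1.5 times without this replicate are given in both ways for the genes whose description turns on it.

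Zinc is a cofactor of many enzymes and is toxic in excess, so yeast cells balance uptake, storage and binding. In fission yeast, Zrt1 imports zinc at the plasma membrane, Zhf1 moves it into the endoplasmic reticulum, the metallothionein Zym1 binds it, and the zinc-finger protein Loz1 represses zrt1 and other uptake genes when zinc is plentiful. Phosphate acquisition rests on the secreted acid phosphatase Pho1, the phosphate transporter Pho84 and the glycerophosphodiester transporter Tgp1, whose genes are activated by Pho7 and repressed when long non-coding RNAs are transcribed through their promoters. Pho4 is a further acid phosphatase, whose gene is repressed by thiamine rather than by phosphate.

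zrt1, the gene of the zinc importer, was most abundant in the polysomes of S52A cells at 6 h. Its polysome level there was 826.5 and 832.6 CPM in replicates 1 and 2, against 491.5 and 360.6 CPM in S52A cells at 0 h. In WT cells its polysome level was 358.8 and 184.1 CPM at 6 h, against 435.4 and 242.0 CPM at 0 h. Both S52A libraries at 6 h lay above all other polysome libraries, and the WT libraries of the 2 times overlapped. In total mRNA, zrt1 stood at 325.0 and 323.7 CPM in S52A cells at 6 h, against 120.7 and 119.3 CPM at 0 h. In WT cells its total mRNA level was 163.1 and 127.1 CPM at 6 h, against 111.7 and 92.94 CPM at 0 h.

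The zrt1 level was thus higher in S52A cells than in WT cells at 6 h in both fractions, by a log2 difference of 1.61 (SE 0.33) in polysomes and 1.16 (SE 0.33) in total mRNA. At 0 h the corresponding differences were 0.33 and 0.23 (SE 0.33 each), and the polysome libraries of the strains overlapped. The 6 h over 0 h difference of S52A cells was 0.96 in polysomes and 1.43 in total mRNA, and that of WT cells was -0.32 in polysomes and 0.50 in total mRNA. In a bulk culture, more cells with a transcript and more of it per cell cannot be told apart. The difference between the strains at 6 h was 1.61 in polysomes and 1.16 in total mRNA also without replicate 2 of S52A cells, so it did not rest on the library that stood apart. Its size did vary with the library left out, between 1.19 and 2.17 in polysomes and between 0.99 and 1.35 in total mRNA.

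**Figure D1:**
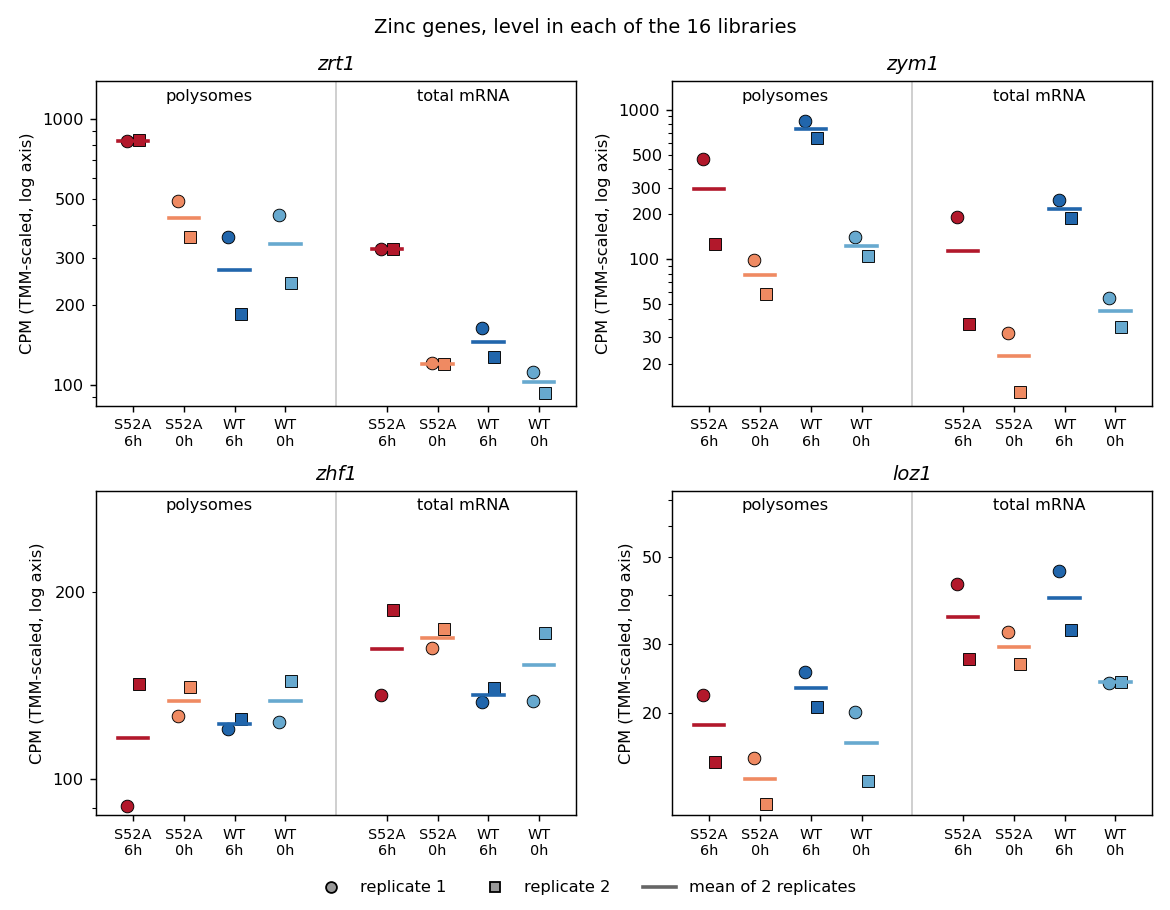
Levels of zrt1, zym1, zhf1 and loz1 in each of the 16 libraries, in TMM-scaled CPM on a log axis, with S52A and WT cells at 6 h and 0 h on the horizontal axis and polysomes left of total mRNA. Symbols are replicates and bars the mean of both; zrt1 reaches 826.5 and 832.6 CPM in S52A polysomes at 6 h, above its other libraries, and zym1 spreads from 125.5 to 465.1 CPM in the same group.

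zym1, the metallothionein gene, had the widest range of the 8 genes, with a ratio of 65 between its highest library (839.7 CPM) and its lowest (12.91 CPM). In polysomes its level was 465.1 and 125.5 CPM in S52A cells at 6 h, against 98.82 and 58.41 CPM at 0 h. In WT polysomes it was 839.7 and 650.1 CPM at 6 h, against 140.5 and 105.2 CPM at 0 h. Each strain had more zym1 at 6 h than at 0 h in both replicates, and WT polysomes at 6 h lay above both S52A libraries. In total mRNA, zym1 stood at 191.0 and 36.97 CPM in S52A cells at 6 h, against 32.14 and 12.91 CPM at 0 h. The WT values were 248.3 and 187.7 CPM at 6 h, against 55.24 and 35.21 CPM at 0 h. The strains thus overlapped in total mRNA at 6 h.

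The 6 h over 0 h difference of zym1 was 1.91 (SE 0.71) in polysomes and 2.34 (SE 0.71) in total mRNA of S52A cells, and 2.60 and 2.27 (SE 0.70 each) in WT cells. Leaving out single libraries moved the S52A values between 0.68 and 2.57 in polysomes and between 0.72 and 3.14 in total mRNA, with 2.57 and 3.09 without replicate 2 at 6 h. S52A cells had less zym1 than WT cells at 6 h by log2 values of -1.33 in polysomes and -0.94 in total mRNA (SE 0.70 each), and at 0 h by -0.65 and -1.01 (SE 0.71 each). The size of the 6 h difference rested on replicate 2 of S52A cells, in which zym1 was 0.27 times its replicate 1 level in polysomes and 0.194 times in total mRNA. Without that replicate, the strains differed by -0.68 (SE 0.75) in polysomes and -0.19 (SE 0.68) in total mRNA. The same libraries had the high share of ribosomal protein reads given above, and its part in the zym1 values was not tested.

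loz1, the gene of the zinc-dependent repressor, had 75 to 297 reads in polysome libraries and 467 to 1204 in total mRNA. Its total mRNA level was 42.71 and 27.48 CPM in S52A cells at 6 h, against 32.27 and 26.73 CPM at 0 h. In WT total mRNA it was 46.08 and 32.61 CPM at 6 h, against 23.82 and 24.02 CPM at 0 h. The WT libraries of the 2 times did not overlap and the S52A libraries did. The S52A overlap rested on replicate 2 at 6 h, and the S52A difference was 0.25 with it and 0.53 without it. The WT difference of 0.72 (SE 0.29) in total mRNA had an adjusted p of 0.123 in edgeR's quasi-likelihood test, and of 0.0193 with the experiment as a block (0.68). zhf1, the gene of the transporter into the endoplasmic reticulum, varied least of the 8 genes, between 90.68 and 186.9 CPM, a ratio of 2.06. Its differences between times and between strains were from -0.20 to 0.25 (SE 0.23 each), none of them past the threshold. Without replicate 2 of S52A cells at 6 h, zhf1 was at -0.55 in S52A polysomes between times (adjusted p = 0.147) and at -0.44 in polysomes between strains (adjusted p = 0.369).

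Of pho1, pho84, tgp1 and pho4, only pho1 had libraries that separated by strain at 6 h in both fractions. None of its comparisons passed the threshold of an adjusted p of 0.05 in edgeR. The share of all genes whose libraries separate in this way was not counted, so non-overlap of this and the other genes is a description. In total mRNA this acid phosphatase gene stood at 129.5 and 314.8 CPM in S52A cells at 6 h, against 210.9 and 341.6 CPM at 0 h. In WT total mRNA it stood at 782.6 and 646.6 CPM at 6 h, against 299.2 and 250.9 CPM at 0 h. At 6 h both S52A libraries lay below both WT libraries, while at 0 h the strains overlapped. In polysomes, pho1 was at 167.5 and 533.4 CPM in S52A cells at 6 h, against 423.1 and 499.2 CPM at 0 h. In WT polysomes it was at 906.8 and 904.1 CPM at 6 h, against 517.6 and 305.5 CPM at 0 h.

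The log2 difference of pho1 between S52A and WT cells at 6 h was -1.69 (SE 0.50, adjusted p = 0.199 in edgeR) in total mRNA and -1.37 (SE 0.50, adjusted p = 0.17) in polysomes. DESeq2 gave -1.66 with an adjusted p of 0.0319 for total mRNA. At 0 h the differences were 0.01 in total mRNA and 0.16 in polysomes. The 6 h over 0 h difference was -0.31 in total mRNA and -0.40 in polysomes of S52A cells (SE 0.50 each), and 1.38 (adjusted p = 0.0952; 0.038 in DESeq2) and 1.14 (adjusted p = 0.139) in WT cells. The difference between these changes, the interaction, was -1.69 in total mRNA (SE 0.71, adjusted p = 0.999) and -1.53 in polysomes (SE 0.71, adjusted p = 0.848). Without replicate 2 of S52A cells at 6 h, the strains differed by -2.47 in total mRNA (adjusted p = 0.344) and by -2.43 in polysomes (adjusted p = 0.0891). The S52A difference between times was then -1.09 in total mRNA (adjusted p = 0.279) and -1.46 in polysomes (adjusted p = 0.0772), and the interaction -2.47 (adjusted p = 1) and -2.60 (adjusted p = 0.714).

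**Figure D2:**
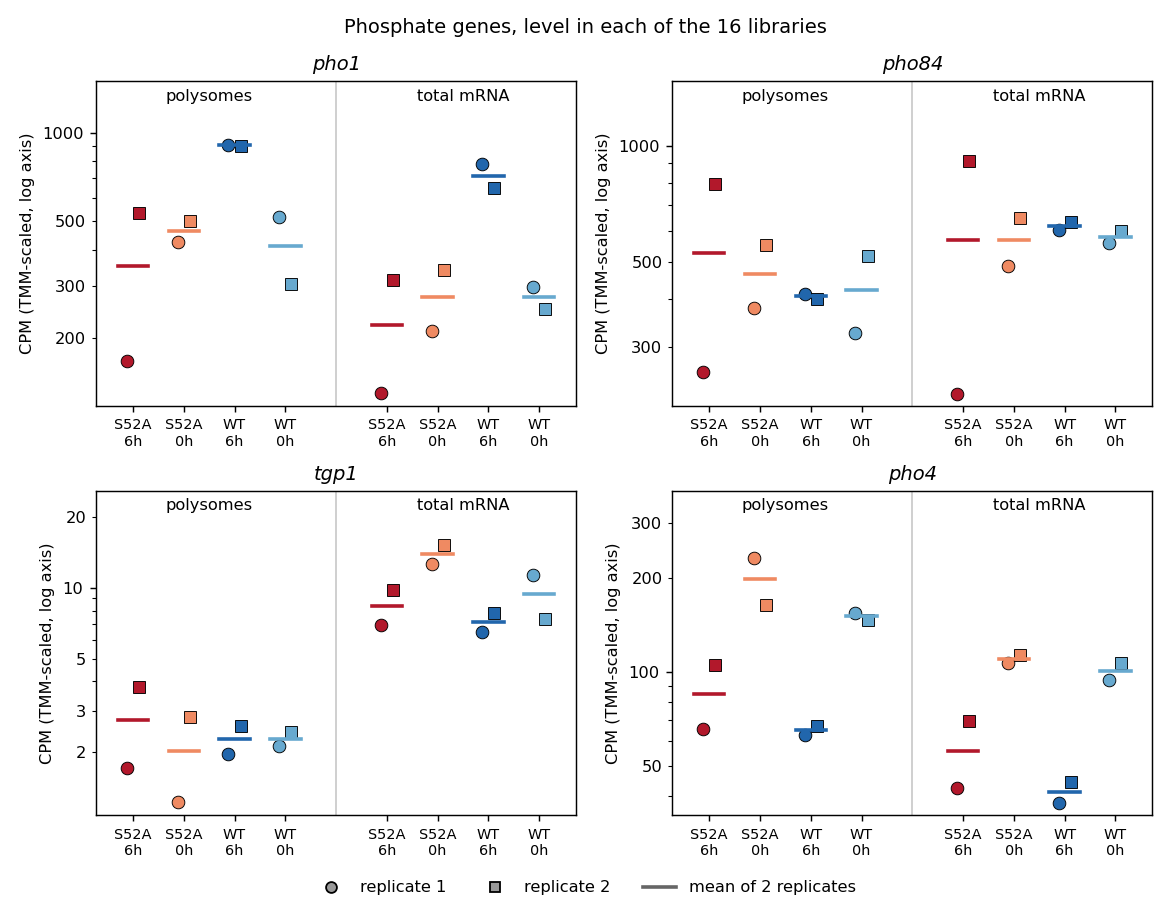
Levels of pho1, pho84, tgp1 and pho4 in each of the 16 libraries, in TMM-scaled CPM on a log axis, with S52A and WT cells at 6 h and 0 h on the horizontal axis and polysomes left of total mRNA. Symbols are replicates and bars the mean of both; pho1 total mRNA at 6 h is 129.5 and 314.8 CPM in S52A cells and 782.6 and 646.6 CPM in WT cells.

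pho84, the phosphate transporter gene, gave no such separation. Its total mRNA level was 226.6 and 915.4 CPM in S52A cells at 6 h, against 603.2 and 635.2 CPM in WT cells. In polysomes at 6 h it was 258.5 and 796.5 CPM in S52A cells, against 413.5 and 401.1 CPM in WT cells. The S52A replicates thus lay on either side of WT in both fractions. Replicate 2 was 4.04 times replicate 1 in total mRNA and 3.08 times in polysomes, the reverse of zym1. At 0 h, pho84 ranged from 488.4 to 651.1 CPM in total mRNA and from 325.8 to 553.7 CPM in polysomes over both strains. The strain differences were -0.12 in total mRNA and 0.37 in polysomes at 6 h (SE 0.57 each), and without replicate 2 of S52A cells they were -1.45 (adjusted p = 0.703) and -0.66 (adjusted p = 0.588).

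tgp1, the glycerophosphodiester transporter gene, had 6 to 38 reads per polysome library and 167 to 353 per total mRNA library. Its total mRNA level was 6.951 and 9.770 CPM in S52A cells at 6 h, against 12.55 and 15.20 CPM at 0 h. The WT values were 6.467 and 7.794 CPM at 6 h, against 11.37 and 7.388 CPM at 0 h. The S52A libraries of the 2 times did not overlap, but the difference of -0.73 (SE 0.39) had an adjusted p of 0.347. RefSeq places a long non-coding RNA on the same strand overlapping each of these 3 genes: nc-pho1 for pho1, prt2 for pho84 and nc-tgp1 for tgp1. These RNAs were not analysed here, and reads from their overlap could have been counted with the genes.

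pho4, the thiamine-repressible acid phosphatase gene, was lower at 6 h than at 0 h in all 4 pairs of groups. In polysomes it fell to 65.34 and 104.9 CPM in S52A cells at 6 h, against 232.8 and 164.1 CPM at 0 h. In WT polysomes it fell to 62.75 and 67 CPM at 6 h, against 155.0 and 146.5 CPM at 0 h. No library at 6 h reached the level of a 0 h library of the same strain and fraction. In WT total mRNA pho4 fell to 37.92 and 44.23 CPM at 6 h, against 94.21 and 107.1 CPM at 0 h. In S52A total mRNA it stood at 42.33 and 69.40 CPM at 6 h, against 106.9 and 113.2 CPM at 0 h.

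The log2 differences of pho4 were -1.22 in S52A polysomes (SE 0.27, adjusted p = 0.0289), -1.22 in WT polysomes (SE 0.27, adjusted p = 0.0129) and -1.29 in WT total mRNA (SE 0.27, adjusted p = 0.0153). S52A total mRNA gave -0.98 (SE 0.27, adjusted p = 0.078), which passed the threshold with the experiment as a block (-1.0, adjusted p = 0.0338), with DESeq2 (0.011) and without its replicate 2 at 6 h (-1.38, adjusted p = 0.0296). The adjusted p rose above the threshold when either replicate 1 of S52A polysomes was left out (0.173 at 0 h and 0.182 at 6 h). It did so for WT polysomes without replicate 1 at 0 h (0.0657), replicate 1 at 6 h (0.0692) or replicate 2 at 6 h (0.0761), and for WT total mRNA without any 1 of its libraries (0.0662 to 0.145). The log2 differences in these refits were from -1.41 to -0.92. The strain interactions of pho4 were 0.00 in polysomes and 0.32 in total mRNA (SE 0.38 each, adjusted p = 1 and 0.999), and -0.38 and -0.08 without replicate 2 of S52A cells at 6 h (adjusted p = 0.924 and 1).

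Of the 6 tested genes, pho4 was the only one called between times: 1 of 6 in S52A polysomes, where 6.99% of all genes were called, 1 of 6 in WT polysomes (17.5% of all genes) and 1 of 6 in WT total mRNA (12%). In S52A total mRNA 0 of 6 were called by edgeR, against 2.87% of all genes, with 1 gene at an unadjusted p under 0.05 and 1 called by DESeq2. With the experiment as a block, the counts were 1 in S52A total mRNA, where 7.49% of all genes were then called, and 2 in WT total mRNA (22.3% of all genes), the second gene being loz1.

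**Figure D3:**
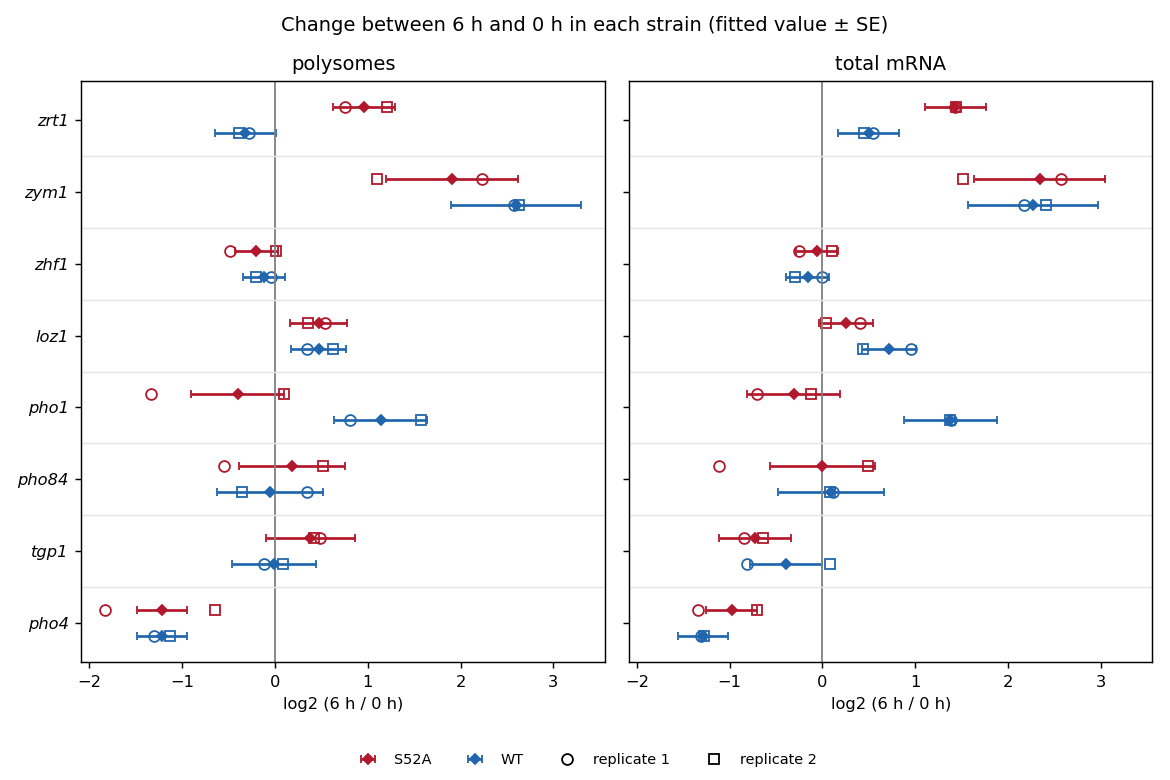
Log2 difference of 6 h over 0 h for each gene, in polysomes (left) and total mRNA (right), with S52A cells in red above WT cells in blue. Diamonds with bars are fitted values ± SE and open symbols the single replicates; pho4 lies left of 0 in both strains, with fitted values from -1.29 to -0.98, while pho1 is at 1.14 and 1.38 in WT cells and at -0.40 and -0.31 in S52A cells.

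Between the strains, 0 of the 6 tested genes were called by edgeR at either time in either fraction. At 6 h the genes called among all genes were 0.924% in polysomes and 0.519% in total mRNA. Of the 6 genes, 1 had an unadjusted p under 0.05 in each fraction (pho1), and DESeq2 called 0 in polysomes and 1 in total mRNA. At 0 h, 0% of all genes were called in polysomes, where an unadjusted p under 0.05 was found for 550 genes and calls by DESeq2 for 32, and 0.0162% in total mRNA. Of the 6 genes, 0 were under 0.05 before adjustment at 0 h, and 0 were called by DESeq2. The smallest adjusted p among the 6 genes at 6 h was that of pho1.

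**Figure D4:**
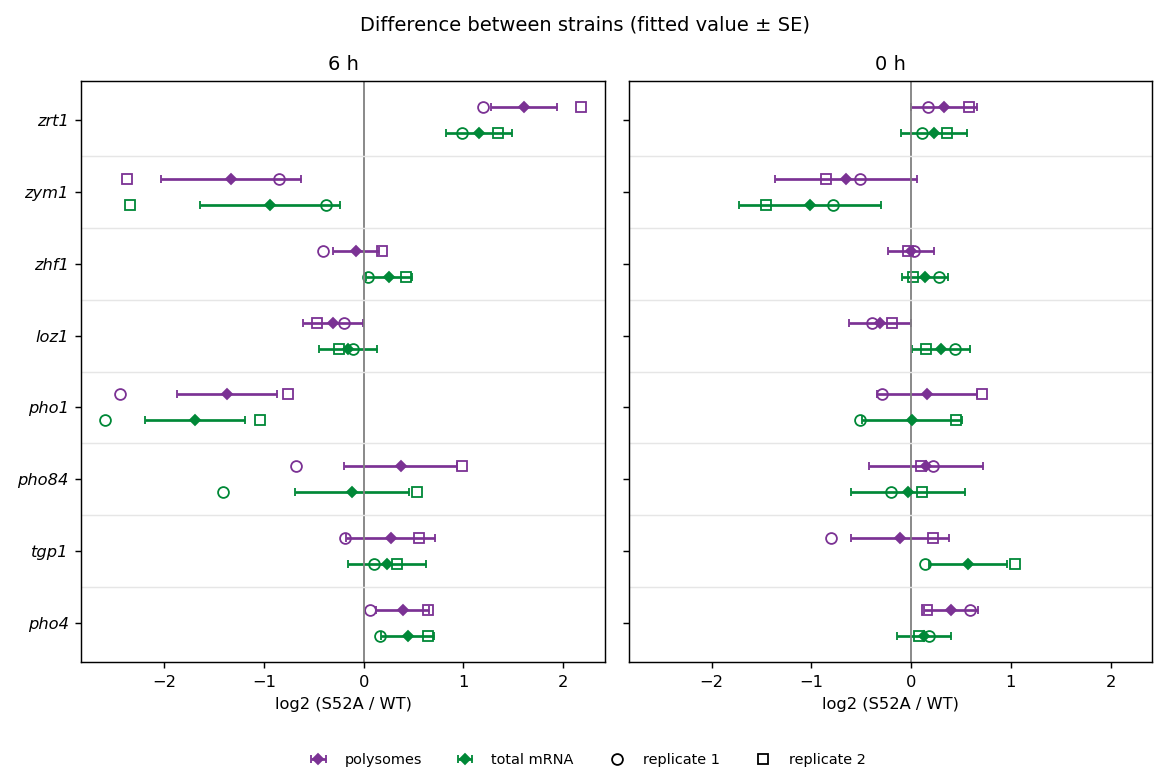
Log2 difference of S52A over WT cells for each gene at 6 h (left) and 0 h (right), in polysomes (purple) above total mRNA (green). Diamonds with bars are fitted values ± SE and open symbols the single replicates; at 6 h zrt1 is at 1.61 and 1.16 and pho1 at -1.37 and -1.69, while at 0 h zrt1 is at 0.33 and 0.23 and pho1 at 0.16 and 0.01.

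The difference between the strains' changes was called for 0 of the 6 genes in either fraction by edgeR and by DESeq2, with 0 genes at an unadjusted p under 0.05 in polysomes and 1 (pho1) in total mRNA. Among all genes 0% were called in polysomes and 0% in total mRNA, with 345 and 146 genes at an unadjusted p under 0.05, and DESeq2 called 23 and 1. For zrt1 this difference was 1.28 in polysomes and 0.93 in total mRNA (SE 0.46 each), and for zym1 it was -0.69 and 0.07 (SE 1.0 each). Without replicate 2 of S52A cells at 6 h the zym1 values were -0.03 in polysomes and 0.82 in total mRNA.

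Translation efficiency (TE) is the polysome level over the total mRNA level, and its change asks whether a gene's share in polysomes moved apart from its mRNA. The TE change between times was called for 0 of the 6 genes in S52A cells (0% of all genes, 99 genes at an unadjusted p under 0.05, 3 by DESeq2) and for 0 of 6 in WT cells (0.0162% of all genes). Its difference between strains was called for 0 of 6 as well (0% of all genes, 38 at an unadjusted p under 0.05, 1 by DESeq2). In each of these 3 comparisons 0 of the 6 genes were under 0.05 before adjustment, and 0 were called by DESeq2. The TE changes of zrt1 were -0.47 in S52A cells and -0.82 in WT cells (SE 0.46 each), so the higher zrt1 level in S52A polysomes at 6 h came with a higher total mRNA level. For zym1 they were -0.43 in S52A cells and 0.33 in WT cells (SE 1.0 each), and for pho1 -0.08 and -0.24 (SE 0.71 each). The S52A values of these 2 genes changed sign with the library left out at 6 h. zym1 was at 0.23 without replicate 2 of polysomes and at -1.17 without replicate 2 of total mRNA, and pho1 at -1.14 and 0.70. These refits keep 1 fraction of a culture without the other. Within replicates 1 and 2 the S52A values were -0.34 and -0.41 for zym1, of the same sign, and -0.63 and 0.21 for pho1. For tgp1 the TE change within replicates 1 and 2 was 1.34 and 1.06 in S52A cells and 0.70 and 0.01 in WT cells. These tgp1 values rest on 6 to 38 reads per polysome library.

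zrt1 and zym1 had higher levels in polysomes than in total mRNA in all 4 pairs of groups by their fitted values. For zrt1 the log2 values were 1.35 in S52A cells at 6 h and 1.83 at 0 h, and 0.90 in WT cells at 6 h and 1.73 at 0 h (SE 0.33 each). For zym1 they were 1.37 in S52A cells at 6 h and 1.80 at 0 h, and 1.77 in WT cells at 6 h and 1.44 at 0 h (SE 0.70 or 0.71). The zym1 value of S52A cells at 6 h ran from 0.14 to 3.0 when single libraries were left out, which separates the fractions of a culture. It was 2.03 without replicate 2 of polysomes and 0.63 without replicate 2 of total mRNA. Within replicates 1 and 2 it was 1.28 and 1.76, although the libraries of the fractions overlapped. These values are relative to the median gene. Scaling by library size alone moved the median of all genes by -1.62 to -0.95 in these comparisons, and zrt1 in WT cells at 6 h was then at -0.01.

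tgp1 had the lowest values of polysomes over total mRNA among the 8 genes. Its polysome level was 1.717 and 3.793 CPM in S52A cells at 6 h and 1.225 and 2.834 CPM at 0 h, below every total mRNA library. In WT polysomes it was 1.964 and 2.582 CPM at 6 h and 2.132 and 2.429 CPM at 0 h, again below every total mRNA library. The log2 values of polysomes over total mRNA were -1.60 (SE 0.42, adjusted p = 0.0095) in S52A cells at 6 h and -2.71 (SE 0.45, adjusted p = 0.000524) at 0 h. In WT cells they were -1.64 (SE 0.42, adjusted p = 0.00992) at 6 h and -2.03 (SE 0.43, adjusted p = 0.00321) at 0 h. The 6 h calls were lost without replicate 1 of S52A polysomes (0.0831), replicate 2 of S52A total mRNA (0.0535) or replicate 1 of WT polysomes (0.0826).

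loz1 was also lower in polysomes. Its polysome level was 22.22 and 14.97 CPM in S52A cells at 6 h and 15.31 and 11.71 CPM at 0 h, and 25.44 and 20.73 CPM in WT cells at 6 h and 20.12 and 13.40 CPM at 0 h. The difference from total mRNA was called in S52A cells at 6 h (-0.92, SE 0.29, adjusted p = 0.026) and at 0 h (-1.14, SE 0.30, adjusted p = 0.00999). In WT cells it was -0.77 (adjusted p = 0.0574) at 6 h and -0.52 (adjusted p = 0.194) at 0 h, and both were called with the experiment as a block (0.00533 and 0.028). The S52A calls were lost without replicate 1 of total mRNA (0.207 at 6 h, 0.0619 at 0 h) or replicate 2 of polysomes (0.151 at 6 h, 0.0787 at 0 h).

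pho4 was the only tested gene called higher in polysomes than in total mRNA, in S52A cells at 0 h (0.85, SE 0.27, adjusted p = 0.023). This call was lost without replicate 1 (0.112) or 2 (0.0797) of total mRNA or replicate 1 of polysomes (0.176), and under scaling by library size alone the value was -0.75. In S52A cells at 6 h pho4 was at 0.61 (adjusted p = 0.0904). Leaving out single libraries moved this value between 0.23 and 1.01, in refits that keep 1 fraction of a culture without the other. Within replicates 1 and 2 it was 0.63 and 0.60. pho4 was at 0.66 in WT cells at 6 h (adjusted p = 0.0762, and 0.0492 with the experiment as a block) and 0.58 in WT cells at 0 h (adjusted p = 0.111). pho1 was between 0.34 and 0.74, pho84 between -0.60 and -0.11 and zhf1 between -0.48 and -0.15, and none of these was called. In S52A cells at 6 h, leaving out single libraries moved pho1 between -0.41 and 1.44 and pho84 between -1.14 and 1.22. Within replicates 1 and 2 the values were 0.37 and 0.76 for pho1, and 0.19 and -0.20 for pho84. The zhf1 value of -0.48 there had an adjusted p of 0.12, and of 0.0354 with the experiment as a block. It was -0.83 without replicate 2 of polysomes, and -0.59 and -0.40 within replicates 1 and 2.

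In all, 2 of the 6 tested genes were called between polysomes and total mRNA in S52A cells at 6 h, where 42.7% of all genes were called, and 3 of 6 in S52A cells at 0 h (44.6%). In WT cells 1 of 6 was called at 6 h (36.1%) and 1 of 6 at 0 h (36.8%). With the experiment as a block the counts were 3 in each strain at 6 h (50.3% of all genes in S52A and 44.8% in WT cells), and at 0 h 3 in S52A cells (51.2%) and 2 in WT cells (44.4%). These shares lie near those of all genes, so the number called is no result about these genes.

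**Figure D5:**
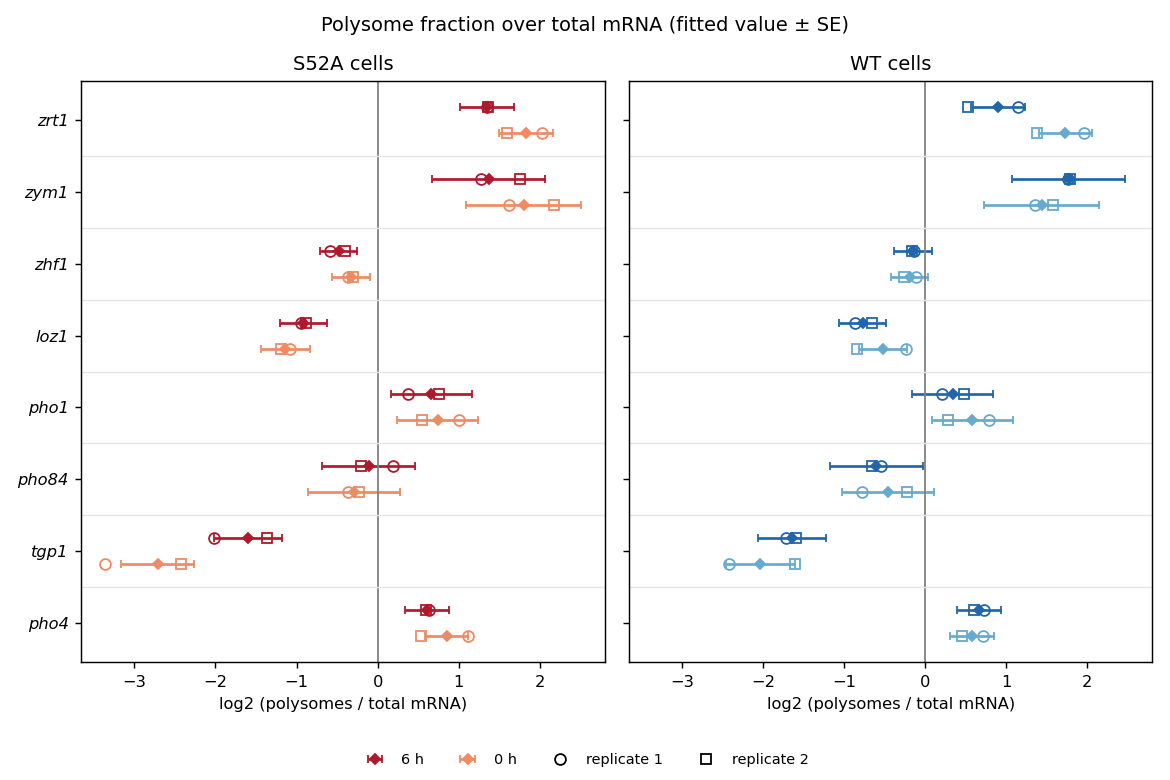
Log2 difference of polysomes over total mRNA for each gene in S52A cells (left) and WT cells (right), with 6 h above 0 h. Diamonds with bars are fitted values ± SE and open symbols the single replicates; zrt1 and zym1 lie right of 0 by 0.90 to 1.83, and tgp1 lies left of 0 by log2 values of -2.71 to -1.60.

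Other genes of the same pathways were taken from lists of 10 zinc and metal genes, 16 phosphate genes and 8 thiamine genes, all of which passed the filter. In S52A polysomes 1 of the 10 zinc genes was called higher at 6 h than at 0 h and 0 lower: hmt1, a vacuolar transporter gene of cadmium tolerance, by 1.15 (adjusted p = 0.0245), where 6.99% of all genes were called. fet4, a low-affinity iron and zinc transporter gene, was at 1.93 there (SE 0.55, adjusted p = 0.0518). In WT polysomes 2 were called higher and 0 lower, hmt1 by 1.11 (adjusted p = 0.0119) and fet4 by 1.78 (adjusted p = 0.03), where 17.5% of all genes were called. In S52A total mRNA 0 were called by edgeR, with 3 at an unadjusted p under 0.05 and 2.87% of all genes called. These 3 were adh1, an alcohol dehydrogenase gene (-1.52, adjusted p = 0.0591), fet4 (1.74, adjusted p = 0.0636) and hmt1 (0.91, adjusted p = 0.065). In WT total mRNA adh1 was at -0.61 (adjusted p = 0.327). The value of adh4, an alcohol dehydrogenase gene repressed by Loz1, was -0.04 in S52A total mRNA. In WT total mRNA, where 12% of all genes were called, fet4 (1.83, adjusted p = 0.0263) and hmt1 (0.90, adjusted p = 0.0317) were called higher and adh4 lower (-1.10, adjusted p = 0.0324). A difference between the strains in these changes was called for 0 zinc genes, with 0 at an unadjusted p under 0.05 in polysomes and 1 in total mRNA. The median of the zinc list was -0.01 in S52A polysomes, 0.00 in S52A total mRNA, -0.39 in WT polysomes and -0.14 in WT total mRNA, where the medians of all genes were 0.00, -0.04, -0.01 and -0.01. Leaving out single libraries ended the calls in 3 of 4 cases for hmt1 in S52A polysomes (adjusted p up to 0.17), in 4 of 4 for hmt1 in either WT fraction (up to 0.184) and for adh4 (up to 0.202), and in 3 of 4 for fet4 in either WT fraction (up to 0.276).

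Among all genes, 6.99% were called between times in S52A polysomes, 2.87% in S52A total mRNA, 17.5% in WT polysomes and 12% in WT total mRNA. Among the 16 phosphate genes, 1 was called in each of these comparisons, so the count is no result about the list. This gene, pho842, annotated as a phosphate transporter gene, was lower at 6 h. It had 23.53 and 23.86 CPM in S52A polysomes at 6 h, against 95.56 and 96.37 CPM at 0 h, and 42.22 and 37.96 CPM in WT polysomes at 6 h, against 148.3 and 159.3 CPM at 0 h. The log2 values were -2.02 in S52A polysomes (adjusted p = 0.000365), -1.28 in S52A total mRNA (adjusted p = 0.00261), -1.94 in WT polysomes (adjusted p = 0.000253) and -1.94 in WT total mRNA (adjusted p = 0.000448). Of the single libraries left out, only replicate 1 of S52A total mRNA at 0 h ended a call (0.0635). For pho84 the values between times ran from -0.05 to 0.18 (SE 0.57 each), and none passed the test. In S52A cells these average replicates of opposite sign, and without replicate 2 at 6 h pho84 was at -0.85 in polysomes (adjusted p = 0.379) and -1.33 in total mRNA (adjusted p = 0.178). Between the strains, asp1, which encodes an inositol pyrophosphate kinase, was called lower in S52A polysomes at 6 h (-1.17, SE 0.22, adjusted p = 0.0356), with 11.31 and 12.28 CPM in S52A cells and 24.10 and 29.03 CPM in WT cells. It was the 1 phosphate gene of 16 called there, where 0.924% of all genes were called. Leaving out any 1 of the 4 libraries ended that call (adjusted p from 0.055 to 0.274).

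Of the 8 thiamine genes, bsu1, which encodes a pyridoxine transporter, was called lower at 6 h in polysomes of S52A cells (-1.63, adjusted p = 0.0245) and of WT cells (-1.41, adjusted p = 0.0133), and the other 7 were not called in polysomes. Among all genes, 6.99% were called in S52A polysomes and 17.5% in WT polysomes. Leaving out single libraries ended the bsu1 call in 2 of 4 cases in S52A cells and in 3 of 4 in WT cells. In total mRNA 0 of the 8 thiamine genes were called between times by edgeR in either strain, with 1 in S52A cells and 2 in WT cells at an unadjusted p under 0.05. There 2.87% of all genes were called in S52A cells and 12% in WT cells. Between polysomes and total mRNA, pho7, the gene of the activator of pho1, pho84 and tgp1, was lower in polysomes by -2.50 in S52A cells at 6 h and -2.89 at 0 h, and by -1.93 in WT cells at 6 h and -2.21 at 0 h (adjusted p from 0.000246 to 0.00268). Of the 16 phosphate genes, 6, with pho7 among them, were called lower in polysomes in each of the 4 pairs of groups, and 2 higher in each strain at 6 h and 3 higher at 0 h. Of the 10 zinc genes, 2 were called lower in S52A cells at 6 h and 1 in each other pair, and of the 8 thiamine genes 3 or 4 were called in each pair. Since 36.1% to 44.6% of all genes were called in these comparisons, the counts are no result about the lists.

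Over the 16 libraries, the levels of the 8 genes did not move as 1 group. Pearson correlations of log2 CPM between pairs of them, as a description, ran from -0.79 (loz1 with pho4, and zym1 with zhf1) to 0.71 (zhf1 with tgp1), with 0.42 for zrt1 with zym1 and 0.33 for pho1 with pho84. The 16 points include both fractions of the same cultures, so fraction sets part of each value. Of 5121 genes whose mean log2 CPM was 2 or more, the 3 most like zrt1 were SPBC115.03 (r = 0.937), annotated as an oxidoreductase, SPAPB2C8.01 (r = 0.921), annotated as a cell surface glycoprotein, and the non-coding RNA vps4-antisense-1 (r = 0.909). The genes most like zym1 were isp6, which encodes a vacuolar serine protease (r = 0.977), mug182 (r = 0.963) and SPBP4H10.17c (r = 0.962). For pho1 they were SPBPB2B2.01, annotated as an amino acid transporter (r = 0.837), uga1, a GABA transaminase gene (r = 0.795), and SPCC70.08c (r = 0.782). For pho84 they were SPNCRNA.619 (r = 0.812), bub3 (r = 0.792) and mug2 (r = 0.781).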

How the data were processed

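The deposited table gives raw read counts, whole numbers that the authors left without normalization. The authors made stranded poly(A) libraries, aligned paired reads with STAR to ASM294v2, used SAMtools, and took strand-specific gene counts from QoRTs. Tool versions were not given in the sources used here. A second deposited table, counts divided by size factors, was not used. Of 7014 genes, 6170 passed edgeR's filterByExpr. Counts were scaled by TMM and fitted in 1 model of 8 groups (8 residual degrees of freedom, common dispersion 0.0585) with edgeR's quasi-likelihood test (edgeR 4.0.16, limma 3.58.1, R 4.3.3). p-values of 17 comparisons were each adjusted by Benjamini-Hochberg over all genes tested, with calls at an adjusted p under 0.05. p-values without another tool named are from this test.

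Alternatives were scaling by DESeq2 size factors or library size alone, no filter, DESeq2 1.42.0, the experiment as a replicate block, and leaving out each library. The labels give the same experiment letter to same-numbered replicates of all groups, which pairs them. The main model did not use this pairing. The block takes out a shift shared by all libraries of an experiment, and neither model pairs the fractions of a culture. The SEs of TE changes and of polysomes over total mRNA therefore do not measure the spread within cultures. Leaving out 1 library keeps the other libraries of its experiment, so these refits compare groups that no longer hold the same experiments. Deviations from group means of same-numbered libraries correlated from -0.09 to 0.58 (median 0.26) over 28 pairs of groups. Correlations used log2 CPM with a prior count of 1.

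All 8 genes were compared in each way, and the figures show all of them between times, strains and fractions. The text gives the values of only some of them in each comparison. Genes of the 3 other lists are named where called between times or strains. adh1 is named for its unadjusted p under 0.05 in S52A total mRNA. Of the list genes called between fractions, only pho7 is named. The 3 genes most like zrt1, zym1, pho1 and pho84 by correlation are named too. The genes and lists were chosen with earlier results of these data known. The model was tested on simulated data. RefSeq's ASM294v3, another assembly than the authors', served only for names and neighbouring genes, so no coordinates or sequences are given. Without gene lengths, levels are compared only within a gene.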

Additional observations from a re-analysis of the deposited data

Results flagged for a closer look

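The replicates of the strains moved in opposite ways between 0 h and 6 h for 3 results. For zrt1 in polysomes, the log2 difference of 6 h over 0 h was 0.75 and 1.21 in S52A cells and -0.28 and -0.39 in WT cells, which the model gave as a difference between strains of 1.28; it was not tested, because zrt1 was chosen by its values. For zym1, the TE change was -0.34 and -0.41 in S52A cells and 0.41 and 0.21 in WT cells. The model gave a difference of -0.76 with an SE of 1.41, also not tested, and replicates 1 and 2 gave -0.75 and -0.63. Leaving out single libraries, which separates the fractions of a culture, moved the difference between -2.00 and 0.86. For pho1 in total mRNA, the difference of 6 h over 0 h was -0.70 and -0.12 in S52A cells and 1.39 and 1.37 in WT cells, a difference of -1.69 with an adjusted p of 0.999.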

How the results depend on the processing

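Counts below are of the 6 tested genes. Under scaling by library size alone, 2 were called between times in WT polysomes and 2 in WT total mRNA. Between polysomes and total mRNA, 3 were then called in S52A cells at 6 h, 5 at 0 h, and 4 in WT cells at each time. Of all genes, 66.1% were called in S52A cells at 6 h and 78.8% at 0 h, and 58.5% at 6 h and 67.5% at 0 h in WT cells. That scaling moved the median of all genes by 0.10 to 0.59 between times, -0.40 to -0.04 between strains and -1.62 to -0.95 between fractions. It reversed pho1 (-0.51 in S52A cells at 6 h, -0.85 at 0 h, -0.60 in WT cells at 0 h), pho4 (-0.54, -0.75 and -0.59 in the same groups) and zrt1 (-0.01 in WT cells at 6 h) in polysomes over total mRNA. Relative to the shifted median, these were 0.61 to 0.77 for pho1, 0.62 to 0.87 for pho4 and 0.94 for zrt1. With DESeq2 size factors 2 were called between fractions in WT cells at 6 h. DESeq2 called 1 between times in S52A total mRNA, 2 in WT total mRNA, 1 between strains in total mRNA at 6 h and 2 between fractions in WT cells at 6 h. The replicate block called 1 between times in S52A total mRNA, 2 in WT total mRNA, and between fractions 3 in S52A and 3 in WT cells at 6 h and 2 in WT cells at 0 h. It changed no other count of the 17.

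Leaving out single libraries gave 0 to 1 calls between times in S52A polysomes, S52A total mRNA and WT polysomes, 0 in WT total mRNA, and between fractions 0 to 1 in WT cells at 6 h, 1 at 0 h, and 1 to 2 in S52A cells at either time. Of 1086 values of tested genes under alternatives, 126 changed sign while uncalled both ways. With 2 replicates a group, and 6 to 38 reads for tgp1 in polysomes, small differences were not detectable.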
